A study of Mus musculus with 8 samples.

Results

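The 9 genes studied here make or remove superoxide or break down peroxides, and they were followed by RNA sequencing in J774A.1 cells, a mouse macrophage line. They were chosen by symbol from the 55487 genes listed: Cybb, Cyba, Ncf1 and Ncf4 of the phagocyte NADPH oxidase, the superoxide dismutases Sod1 and Sod2, and Cat, Gpx1 and Gpx4, whose products break down peroxides. All 9 were found and all 9 passed the filter on low values, so they were among the 11796 genes tested. The LPS group was 4 libraries of cells given LPS, which comes from bacterial outer membranes and activates macrophages, at 1 μg/mL, and the LPS + UDCA group was 4 libraries of cells given the same LPS with 1 mM ursodeoxycholic acid (UDCA), a secondary bile acid. Both groups were collected after 24 h, and both carry LPS, so every value below is a level under LPS and the comparison is of UDCA on top of it. The cells are one established line, and the labels do not say whether the 4 libraries of a group came from separate cultures, so the p-values measure the spread between libraries only. Values are TPM (reads per gene divided by gene length and scaled toward a common total per library, though the column sums differ slightly). Such values hold no read numbers, so the depth behind each is unknown.

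In activated phagocytes the NADPH oxidase moves electrons from NADPH to oxygen and forms superoxide. Its catalytic subunit (gp91phox, from Cybb) and p22phox (from Cyba) sit together in the membrane, while p47phox (Ncf1) and p40phox (Ncf4) wait in the cytosol and join them, with the GTPase Rac, when the cell is stimulated. Superoxide dismutases turn superoxide into hydrogen peroxide, Sod1 in the cytosol with copper and zinc and Sod2 in mitochondria with manganese. Catalase removes hydrogen peroxide without a cosubstrate, whereas glutathione peroxidases are selenoproteins that use glutathione, Gpx1 mainly on hydrogen peroxide and Gpx4 on lipid peroxides in membranes. Sod2 is widely known as a gene that inflammatory signals induce.

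The cells carried macrophage markers. Of 8 macrophage genes, 7 were detected and Mertk was listed at 0 in all 8 libraries. The summed TPM of the list was 2799 to 2977 with LPS and 916 to 999 with LPS + UDCA. Of the 8 markers, 2 rose and 4 fell by 2-fold or more at an FDR under 0.05 from limma. Over all genes tested, 8.71% rose and 8.44% fell by this measure. Lyz2, the lysozyme gene, had 1988 ± 93.8 TPM (SD, n = 4) and 436 ± 20.0 TPM, while Adgre1, which encodes F4/80, had 46.6 ± 3.97 and 114 ± 8.24 TPM. Markers of T cells, B cells, neutrophils, epithelium and fibroblasts, 10 genes in all, never exceeded 0.08 TPM. The part of the shift in macrophage markers in the results on the 9 genes was not tested, and in bulk RNA fewer cells of a kind and less RNA per cell cannot be told apart.

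The stretches of 250 bases just before the start sites of 5 of the genes are shown first, because they belong to genes with opposite changes: Sod1 against Sod2, and Ncf1 against Cyba, with Cat as the gene that rose most. RefSeq start sites on GRCm38.p6 matched 8 of the 9 genes, and the submitters' processing notes name GRCm38. Each sequence reads 5′ to 3′ along the gene's own strand and ends at the base before the start site, which is position -1. The window of Sod2 lies inside the gene as GENCODE draws it, with 22 of its bases in annotated exons, and 8 bases of the Sod1 window and 7 of the Cat window are exonic too. Capitals mark matches, on either strand, to the SP1 box GGGCGG, the TATA box TATAAA, the PU.1 core GAGGAA, the antioxidant response element core TGACNNNGC and the NF-κB motif. The windows are chr16:90220512-90220761 (plus strand) for Sod1, chr17:13007589-13007838 (plus) for Sod2, chr2:103485154-103485403 (minus) for Cat, chr8:122432941-122433190 (minus) for Cyba and chr5:134229626-134229875 (minus) for Ncf1.
Sod1: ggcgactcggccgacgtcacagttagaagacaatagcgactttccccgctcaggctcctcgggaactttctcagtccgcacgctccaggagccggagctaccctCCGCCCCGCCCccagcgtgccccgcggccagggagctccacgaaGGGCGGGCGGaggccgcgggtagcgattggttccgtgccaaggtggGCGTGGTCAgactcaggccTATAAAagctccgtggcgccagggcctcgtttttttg
Sod2: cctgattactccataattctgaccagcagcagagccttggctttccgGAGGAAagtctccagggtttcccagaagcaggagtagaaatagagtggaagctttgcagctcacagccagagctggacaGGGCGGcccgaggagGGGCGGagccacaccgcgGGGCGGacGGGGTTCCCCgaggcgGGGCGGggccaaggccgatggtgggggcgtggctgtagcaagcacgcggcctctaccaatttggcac
Cat: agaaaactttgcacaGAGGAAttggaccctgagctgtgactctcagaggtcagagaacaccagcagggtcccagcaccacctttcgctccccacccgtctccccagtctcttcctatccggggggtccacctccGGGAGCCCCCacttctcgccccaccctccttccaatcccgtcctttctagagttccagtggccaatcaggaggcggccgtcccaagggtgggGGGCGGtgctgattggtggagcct
Cyba: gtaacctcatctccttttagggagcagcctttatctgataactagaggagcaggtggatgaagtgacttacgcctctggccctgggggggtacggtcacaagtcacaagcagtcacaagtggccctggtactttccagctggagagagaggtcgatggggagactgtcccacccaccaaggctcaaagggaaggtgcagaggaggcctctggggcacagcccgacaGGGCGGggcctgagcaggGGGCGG
Ncf1: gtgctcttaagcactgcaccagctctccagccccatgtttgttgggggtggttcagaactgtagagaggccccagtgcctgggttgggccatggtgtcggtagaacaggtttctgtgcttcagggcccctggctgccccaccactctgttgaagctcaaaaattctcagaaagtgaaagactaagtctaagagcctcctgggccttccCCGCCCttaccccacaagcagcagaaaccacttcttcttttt
The Sod1 window held a TATA box at -37 to -32 and an antioxidant response element core at -56 to -48, along with 4 SP1 boxes, some of which overlap each other. Sod2 also held 4 SP1 boxes, but with an NF-κB match at -83 to -74 between them and a PU.1 core at -203 to -198. The window of Cat, which rose, likewise held an NF-κB match, at -116 to -107, so this motif was in windows of genes that moved in opposite directions. Over the 11 windows of the 8 matched genes, of which 4 belong to Gpx4, SP1 boxes were present in 8, NF-κB matches in 3 (Sod2, Cat and Gpx1, whose window has 177 of its 250 bases in annotated exons), PU.1 cores in 2 (Sod2 and Cat), and a TATA box and an antioxidant response element core in 1, Sod1. Some windows of Gpx4 overlap and share SP1 boxes, and counted by gene SP1 boxes were in 6 of the 8. Of all 32851 windows of this length, 32.7% held an SP1 box, 7.25% an NF-κB match, 23.3% a PU.1 core, 12.4% a TATA box and 10.2% an antioxidant response element core. These are matches of letters and no binding was measured.

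UDCA shifted the 9 genes in both directions. At an FDR under 0.05 from limma, fitted over all 11796 genes, 4 rose (Ncf1, Ncf4, Sod1 and Cat), 4 fell (Cybb, Cyba, Sod2 and Gpx1), and Gpx4 did not pass. Over all genes tested, 40.2% of genes rose and 32.3% fell by this measure, and 72.5% passed in either direction, which is the share beside which 8 of 9 has to be read. With a fold change of at least 2 as well, Cat was upregulated (8.71% of all genes were) and Sod2 and Gpx1 were downregulated (8.44% of all genes were). For 8 of the 9 genes the ranges of the groups were apart, as they were for 66.8% of the genes tested. The median log2 fold change was -0.065 over the 9 and 0.082 over all genes, and the median size of the change, regardless of sign, was 0.86 and 0.47.

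**Figure D1:**
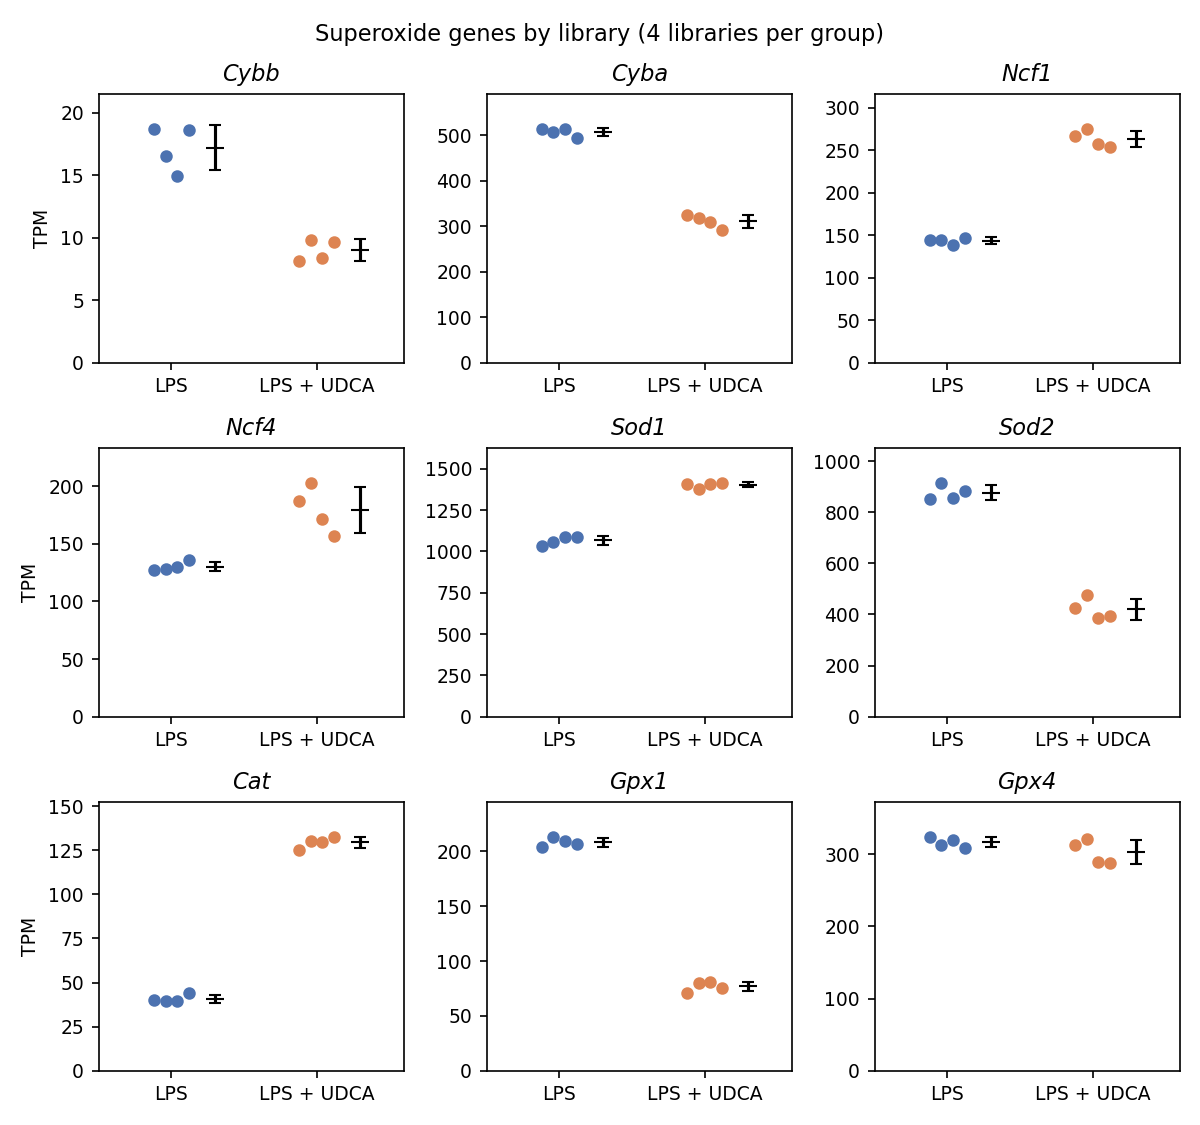
TPM of each of the 9 genes in every library (points, replicates 1 to 4 from left to right) with the mean and SD of each group (black bars), each axis starting at 0. The groups are apart in every panel except Gpx4, where LPS + UDCA replicates 1 and 2, at 313.39 and 320.75 TPM, lie inside the LPS range.

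Both membrane subunits of the oxidase fell. Cybb, on chromosome X from 9435252 to 9487771 of GRCm38, stood at 18.73, 16.55, 14.93 and 18.62 TPM in the LPS libraries (replicates 1 to 4, the order used throughout) and at 8.13, 9.85, 8.39 and 9.69 TPM when UDCA was added. The lowest LPS library was above the highest one with UDCA, and the ratio of means was 0.524 (log2 fold change -0.86, SE 0.092, limma adjusted p = 2.6e-05). Cyba, on chromosome 8 from 122424776 to 122432930, was far more abundant, at 514.60, 507.00, 513.96 and 494.15 TPM under LPS and at 325.28, 317.10, 309.74 and 291.58 TPM under LPS + UDCA. It fell to 0.613 of its LPS mean (log2 fold change -0.71, SE 0.038, limma adjusted p = 3.0e-07). Neither reached the 2-fold minimum. The gene Gm20388 overlaps Cyba on the other strand without sharing exons, and it was listed at 723 to 891 TPM over the 8 libraries.

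As the 2 proteins form a pair, the ratio of their mRNAs was compared within each library. Per length, Cybb amounted to 0.0338 of Cyba with LPS and 0.0289 with LPS + UDCA (geometric means). The log2 ratio was -4.89 ± 0.17 and -5.11 ± 0.19 (SD, n = 4), a difference of -0.22, and the ranges overlapped (exact permutation test, 2-sided p = 0.14, and 0.14 after adjustment over the 4 ratios tested). Different falls of the 2 subunits were thus not detectable against the spread between libraries, taken as unpaired.

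The cytosolic subunits among the 9 genes moved the other way. Ncf1 (p47phox), on chromosome 5 from 134220053 to 134229625, had 144.75, 144.43, 138.43 and 147.13 TPM under LPS and 266.55, 275.43, 256.95 and 254.37 TPM under LPS + UDCA. Its rise to 1.83 times the LPS mean was larger than the spread of either group (log2 fold change 0.87, SE 0.036, limma adjusted p = 7.4e-08). Exons of Gtf2ird2 on the opposite strand overlap it, and that gene was listed at 3.01 to 4.50 TPM. Ncf4 (p40phox), on chromosome 15 from 78244801 to 78262580, was listed at 126.86, 128.15, 129.59 and 135.48 TPM under LPS and at 186.93, 202.96, 171.32 and 156.94 TPM under LPS + UDCA. The treated libraries were more scattered than those of the LPS group (coefficient of variation 11.1% against 2.93%), yet all 4 lay above it (log2 fold change 0.46, SE 0.072, limma adjusted p = 3.4e-04). Ncf1 gained on Ncf4, with a ratio of 1.11 under LPS and 1.47 under LPS + UDCA. On the log2 scale it rose from 0.14 ± 0.045 to 0.56 ± 0.11 (exact permutation test, 2-sided p = 0.029, the smallest the design allows, and 0.038 after adjustment over 4 ratios). The ranges of both genes in each group fixed this p, so it adds no support of its own.

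**Figure D2:**
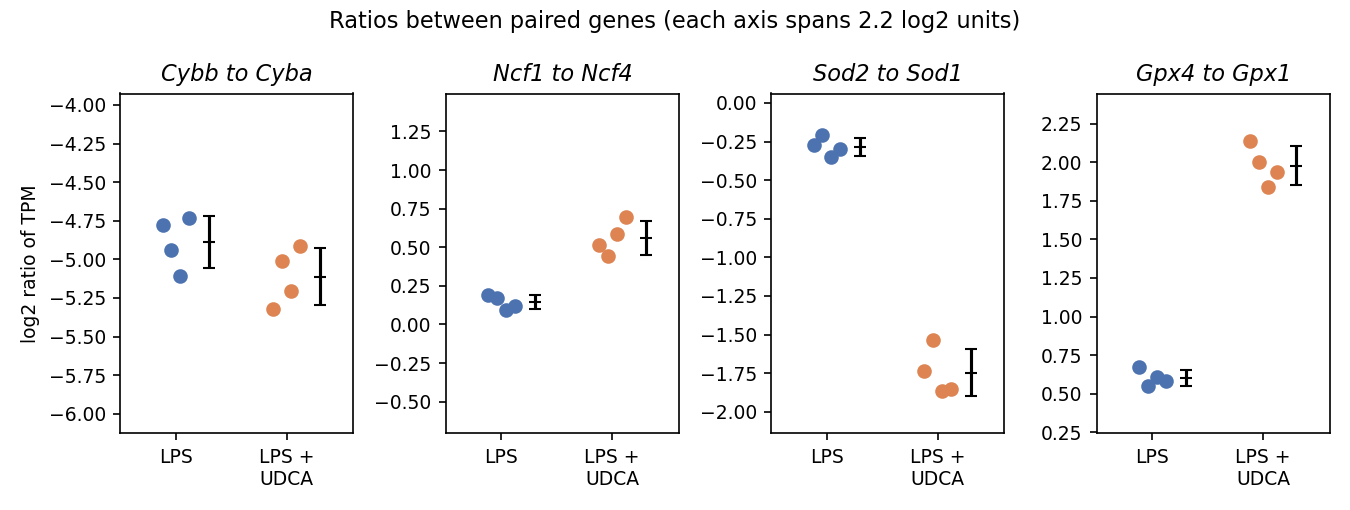
Log2 ratio of TPM between paired genes in each library (points), with the mean and SD of each group (black bars) on axes of equal span. The ratio of Cybb to Cyba overlaps between the groups, and the other 3 are apart, the widest being Sod2 to Sod1 with a difference of -1.46.

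Other genes of the oxidase, compiled as a list of 16, placed these changes among their partners. Of the 16, 7 were tested and 8 stayed under 1 TPM in every library, among them Nox1, Nox3 and Nox4, which encode the catalytic subunits of other NADPH oxidases. Noxo1 reached 2.30 TPM in 1 library without passing the filter. At an FDR under 0.05 from limma, 4 of the 7 rose and 2 fell, with 1 upregulated past 2-fold. So 6 of 7 passed, beside 72.5% of all genes tested.

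Cybc1, whose product is a chaperone needed for gp91phox and p22phox to be made in amount, rose as both of their mRNAs fell. It had 32.90, 33.01, 32.30 and 29.99 TPM with LPS and 69.06, 68.78, 69.17 and 74.19 TPM with UDCA added (log2 fold change 1.11, SE 0.047, limma adjusted p = 7.5e-08). The GTPase gene Rac2, the form typical of blood cells, was at 362.42, 403.21, 361.37 and 380.72 TPM under LPS and at 243.04, 236.26, 146.30 and 233.70 TPM under LPS + UDCA, where replicate 3 lay far under the others. On the log2 scale the change was -0.84 (SE 0.15, limma adjusted p = 7.0e-04), and -0.66 without that library. Rac1, the widely expressed form, had 157 ± 10.01 and 146 ± 12.02 TPM and did not pass (log2 fold change -0.11, 95% confidence interval -0.26 to 0.041, limma adjusted p = 0.16). With median-of-ratios scaling it was -0.22 and passed (limma adjusted p = 0.022). Of its 31-base words, 51.3% occur in other genes, Daglb sharing the most. Vav1, an exchange factor that activates Rac, fell (log2 fold change -0.61), while Prkcd, a kinase that phosphorylates p47phox, and Rap1a, a GTPase found with the membrane subunits, rose (0.49 and 0.42).

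The dismutases parted. Sod1, on chromosome 16 from 90220754 to 90226329, was the most abundant of the 9 genes in both groups, at 1030.95, 1060.04, 1088.92 and 1086.25 TPM under LPS and at 1410.89, 1379.39, 1406.92 and 1416.53 TPM under LPS + UDCA. The treated libraries were close together and all above the LPS group (ratio of means 1.32, log2 fold change 0.40, SE 0.027, limma adjusted p = 1.2e-06). Sod2, on chromosome 17 from 13006846 to 13040063, had 852.84, 916.29, 854.80 and 883.28 TPM under LPS and 424.39, 476.44, 385.61 and 392.46 TPM under LPS + UDCA. It fell to 0.479 of its LPS mean (log2 fold change -1.07, SE 0.064, limma adjusted p = 6.3e-07), just past 2-fold, and with quantile normalization the log2 fold change was -0.92 and short of it. Of the 31-base words of Sod2, 26.7% also occur in other genes.

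Sod2 transcripts thus were 45.1% ± 0.99 of the summed TPM of the 2 dismutase genes under LPS and 23.0% ± 1.92 under LPS + UDCA, while the sum itself was 1943 ± 42.1 and 1823 ± 28.0 TPM. This share, and those given below for the genes that remove peroxides, were chosen after the values were seen and were not tested. The log2 ratio of Sod2 to Sod1 was -0.28 ± 0.058 and -1.75 ± 0.15 (exact permutation test, 2-sided p = 0.029, the smallest the design allows, and 0.038 after adjustment over 4 ratios). As the groups were apart for both genes, in opposite directions, this p was fixed by the single-gene values and adds no support. Sod3, the secreted dismutase, was listed at 0 in every library. Ccs, the chaperone that loads copper into Sod1, rose with it, from 41.2 ± 1.71 to 52.8 ± 3.23 TPM (log2 fold change 0.35, limma adjusted p = 2.8e-04). Ccs was the one gene tested in a list of 11 that held it together with further dismutase and peroxidase genes. The other 10, Gpx2, Gpx3 and Mpo (myeloperoxidase) among them, stayed under 1 TPM in every library.

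**Figure D3:**
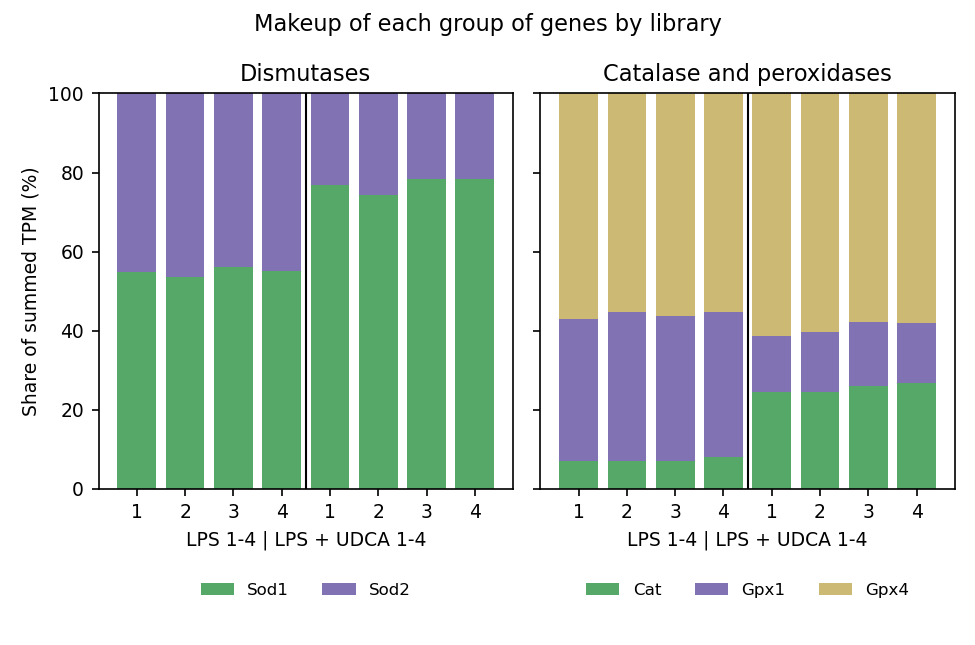
Share of the summed TPM (%) held by each gene in every library, for the dismutases (Sod1, Sod2) and the genes that remove peroxides (Cat, Gpx1, Gpx4), with LPS replicates left of the black line and LPS + UDCA right of it. Sod2 goes from 45.1% to 23.0% and Gpx1 from 36.8% to 15.1% of its group on average.

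Among the genes that remove peroxides, catalase and Gpx1 exchanged places. Cat, on chromosome 2 from 103453849 to 103485160, was listed at 40.10, 39.46, 39.36 and 44.31 TPM under LPS and at 125.33, 130.30, 129.74 and 132.80 TPM under LPS + UDCA. No other of the 9 genes rose as much (ratio of means 3.17, log2 fold change 1.64, SE 0.046, limma adjusted p = 7.3e-09), and its change was at least as large in size as that of 95.2% of the genes tested. Gpx1, on chromosome 9 from 108338903 to 108340343, had 203.62, 213.54, 209.45 and 206.47 TPM under LPS and 71.20, 80.18, 80.71 and 75.38 TPM under LPS + UDCA. It fell most of the 9, to 0.369 of its LPS mean (log2 fold change -1.43, SE 0.045, limma adjusted p = 1.5e-08). Every LPS library had more Gpx1 than Cat, and every LPS + UDCA library more Cat than Gpx1.

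Gpx4, on chromosome 10 from 80047166 to 80056439, did not follow Gpx1. It was listed at 324.64, 312.99, 319.61 and 308.92 TPM under LPS and at 313.39, 320.75, 288.84 and 288.37 TPM under LPS + UDCA. LPS + UDCA replicates 1 and 2 lay within the LPS range and replicates 3 and 4 under it. The log2 fold change was -0.065 (95% confidence interval -0.16 to 0.030, limma adjusted p = 0.19), and with median-of-ratios scaling it was -0.17 and passed (limma adjusted p = 0.0070). Of its 31-base words, 38.9% occur in other genes, and the one sharing the most is the pseudogene Gpx4-ps2, which was listed at 0.13 to 1.61 TPM. The log2 ratio of Gpx4 to Gpx1 went from 0.60 ± 0.052 to 1.98 ± 0.13 (exact permutation test, 2-sided p = 0.029, the smallest the design allows, and 0.038 after adjustment over 4 ratios). The ranges of both genes in each group fixed this p too, so it adds no support of its own. Per length there was 1.52 times as much Gpx4 as Gpx1 with LPS and 3.94 times as much with LPS + UDCA. The 3 genes summed to 566 ± 4.10 TPM under LPS and 509 ± 15.8 TPM under LPS + UDCA. Cat held 7.22% ± 0.47 and 25.5% ± 1.09 of that sum, Gpx1 36.8% ± 0.78 and 15.1% ± 0.90, and Gpx4 56.0% ± 0.90 and 59.4% ± 1.77.

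Both peroxidases need selenocysteine, and 7 genes linked to its synthesis, insertion or breakdown were compiled. All 7 were tested, 3 rose and 2 fell at an FDR under 0.05 from limma, and 2 did not pass, so that 5 of 7 passed beside 72.5% of all genes tested. Sephs2, which makes the selenium donor for selenocysteine, fell from 162 ± 4.17 to 69.3 ± 2.54 TPM (log2 fold change -1.21, SE 0.038, limma adjusted p = 1.5e-08). Its 4 LPS libraries lay between 155.87 and 164.75 TPM and its 4 LPS + UDCA libraries between 66.77 and 71.51 TPM. Secisbp2, the protein that binds the selenocysteine insertion element of these mRNAs, rose from 7.54 ± 0.60 to 17.4 ± 1.52 TPM (log2 fold change 1.11, SE 0.080, limma adjusted p = 2.0e-06). Sephs1 fell (log2 fold change -0.62). Sepsecs, at a lower level, rose from 2.6 ± 0.28 to 5.3 ± 0.37 TPM (log2 fold change 0.80, limma adjusted p = 4.3e-05). Scly, which frees selenium from selenocysteine, passed narrowly (log2 fold change 0.12, limma adjusted p = 0.036), with overlapping libraries. It was 0.017 with median-of-ratios scaling and no longer passed (limma adjusted p = 0.74), nor did it pass without LPS replicate 2, 3 or 4 or LPS + UDCA replicate 1, 2 or 3 (limma adjusted p between 0.052 and 0.097) or without the variance trend (limma adjusted p = 0.054). The kinase gene Pstk (log2 fold change 0.33, limma adjusted p = 0.072) and the elongation factor gene Eefsec (log2 fold change -0.20, limma adjusted p = 0.061) did not pass. Pstk passed without LPS replicate 3 (log2 fold change 0.44), LPS + UDCA replicate 3 (0.40) or LPS + UDCA replicate 4 (0.40), and Eefsec without LPS replicate 4 (-0.24) or LPS + UDCA replicate 2 (-0.24) and with either other normalization (-0.30 and -0.27).

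**Figure D4:**
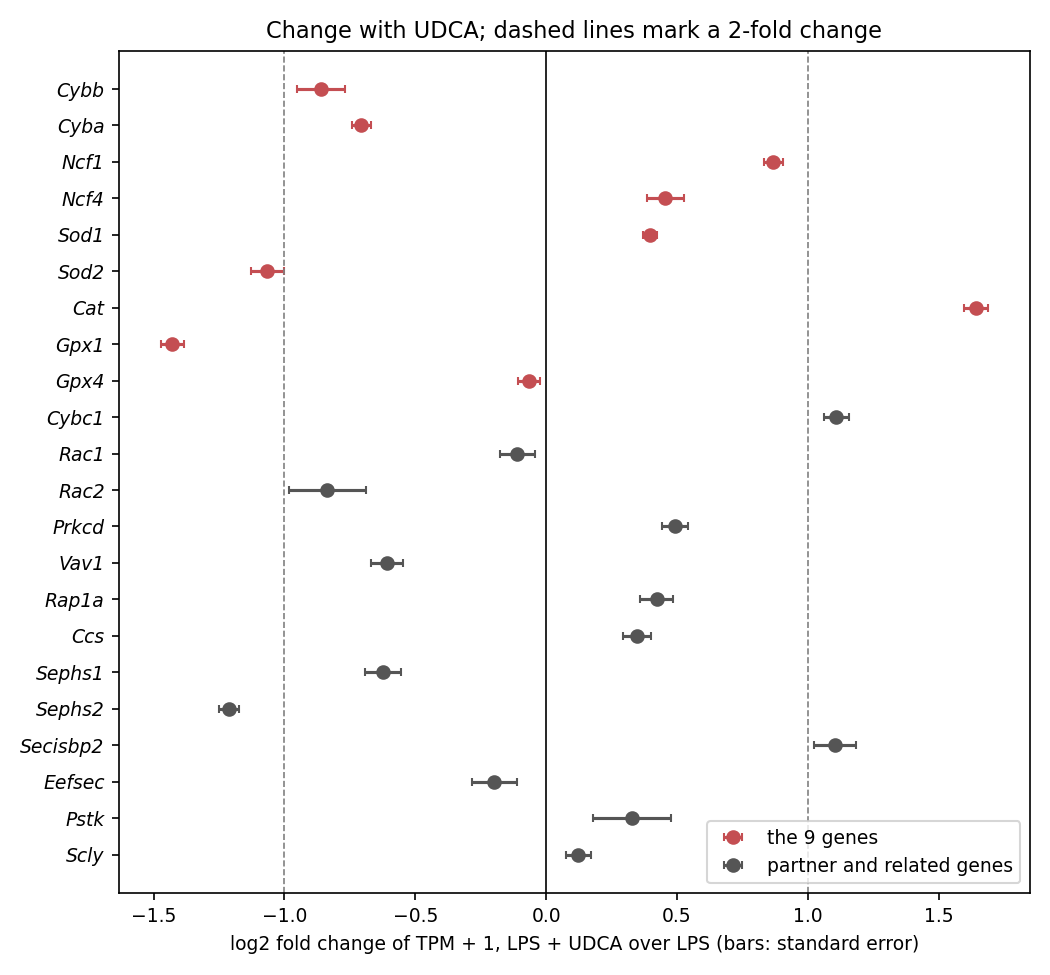
Log2 fold change of TPM + 1, LPS + UDCA over LPS, with its standard error (bars), for the 9 genes (red) and the partner and related genes with at least 10 TPM on average or a change past both thresholds (grey). Dashed lines mark 2-fold, which Cat, Cybc1 and Secisbp2 pass upward and Sod2, Gpx1 and Sephs2 downward.

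TPM divides length out, but the lengths used and the handling of reads that match several genes are not known. Levels of different genes thus compare only roughly. Ordered by mean TPM, the LPS libraries ran Sod1, Sod2, Cyba, Gpx4, Gpx1, Ncf1, Ncf4, Cat and Cybb, from 1067 ± 27.1 down to 17.2 ± 1.82 TPM. All neighbours in this order were apart, with no overlap of their 4 libraries. With LPS + UDCA the order was Sod1, Sod2, Cyba, Gpx4, Ncf1, Ncf4, Cat, Gpx1 and Cybb, from 1403 ± 16.5 down to 9.02 ± 0.88 TPM. There the ranges of Cyba and Gpx4 overlapped (311 ± 14.4 and 303 ± 16.7 TPM), and Cyba was the higher in 3 of 4 libraries. Gpx1 dropped by 3 places, which was the largest move in the order. Cybb was last in both groups, although its protein is the catalytic one, and by mean TPM it lay at percentile 47.7 of the genes tested, whereas the other 8 lay at percentile 87.7 or above.

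**Figure D5:**
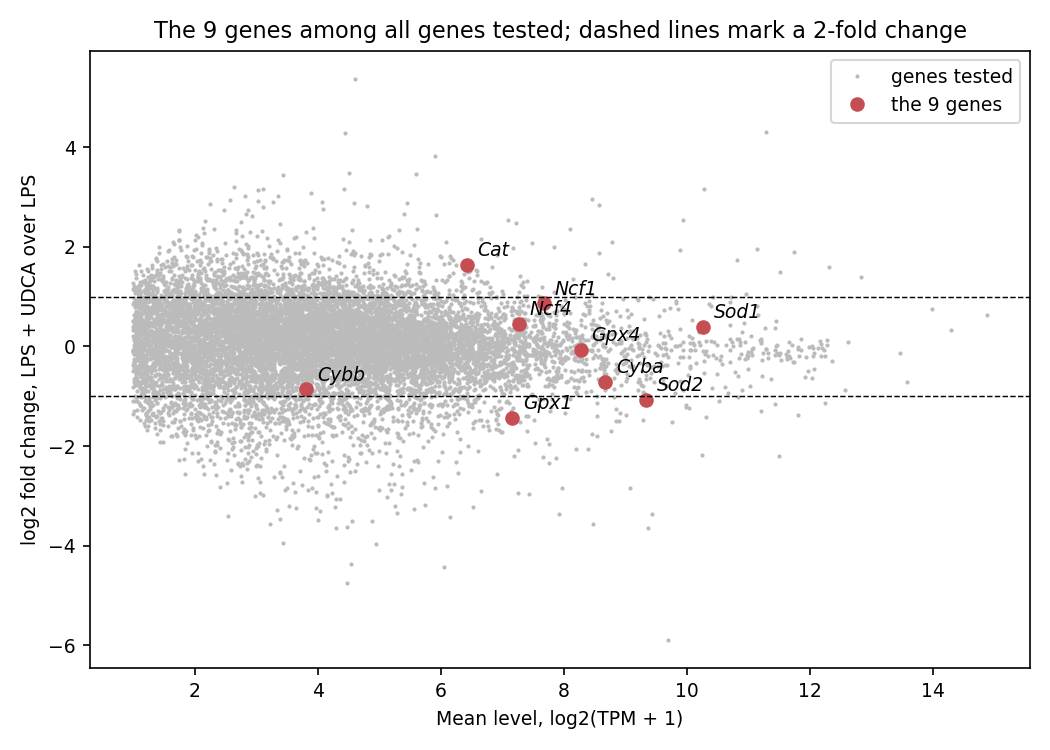
Log2 fold change (LPS + UDCA over LPS) against mean level, log2(TPM + 1), for the 11796 genes tested (grey) and the 9 genes (red), with dashed lines at 2-fold. Cat (1.64), Sod2 (-1.07) and Gpx1 (-1.43) lie outside the lines, and all but Cybb are on the abundant side.

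The genes whose levels over the 8 libraries were most like those of Cat and of Gpx1 were sought among the 7072 genes with at least 10 TPM on average. For Cat these were Gm20005, Cd151 (a tetraspanin) and Psmc2 (a proteasome ATPase), each with Pearson's r = 0.999 on log2(TPM + 1). For Gpx1 they were Plk1 (a mitotic kinase), Psme1 (a proteasome activator subunit) and Rab34 (a Rab GTPase), also each with r = 0.999. These 8 points are 2 groups of 4 that differ in both genes, so such values mostly record the difference between the groups, and 1445 genes for Cat and 1457 for Gpx1 had r over 0.95. The sizes of the changes were not alike, with a log2 fold change of 0.66 for Psmc2 and -4.37 for Plk1.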

How the data were processed

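The authors deposited TPM per gene, one column per library, with values kept to 2 decimals. The unit was taken from the values, as each column sums to between 958918 and 977485. The LPS columns sum to between 973190 and 977485 and the LPS + UDCA columns to between 958918 and 962737. The submitters' processing notes name Bowtie 0.12.2 and mm10/GRCm38. The counting program, the annotation, whether strand was used and the handling of reads that match several genes are not given in the sources used here. TPM is a share of a library, so a strong change in abundant genes moves the TPM of the others.

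A linear model per gene (limma 3.58.1 under R 4.3.3, eBayes with trend) was run on log2(TPM + 1) for the 11796 genes whose mean reached 1 TPM, and Benjamini-Hochberg adjustment covered all of them. Genes with an FDR under 0.05 are said to rise or fall, and those called up- or downregulated also had a fold change of at least 2, the thresholds of the study's methods. Fold changes on this scale understate those of low genes. The 4 ratios between paired genes were compared by a 2-sided exact permutation test over the 70 arrangements of the libraries (scipy 1.17.1). The fit was tested on simulated data.

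The 9 genes and the lists were chosen with earlier results of these data known. All 9 are named, as is every listed partner gene that was called or had a mean of at least 10 TPM. A gene of the lists as first compiled is not reported here and is left out of their counts. The likeness rule takes the 3 genes with the highest correlation to those of the 9 genes with the highest and lowest log2 fold change. Positions and overlaps were read from the GENCODE M21 annotation (GRCm38). Words of 31 bases, on either strand, shared with transcripts of other genes show where reads could be split. Alternatives covered normalization, filter, pseudocount, variance trend, fold change minimum, replicate block and leaving out each library.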

Additional observations from a re-analysis of the deposited data

Results flagged for a closer look

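Dixon's ratio, the distance of the highest or lowest library from the next one over the whole range, was computed for 52 sets of 4 libraries. It passed its 95% critical value in 3 of them, and chance alone gives about 2.6. For Cat, LPS replicate 4 was highest, at 44.31 TPM (ratio 0.851), with the other LPS libraries between 39.36 and 40.10 TPM. For Cybc1, LPS + UDCA replicate 4 was highest, at 74.19 TPM (ratio 0.928), with the others between 68.78 and 69.17 TPM. For Rac2, LPS + UDCA replicate 3 was lowest, at 146.3 TPM (ratio 0.903), with the others between 233.7 and 243 TPM. All 3 genes passed an FDR of 0.05 from limma with the library in question left out.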

How the results depend on the processing

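Apart from Gpx4, the 9 genes kept their direction and passed an FDR of 0.05 from limma in all 15 alternatives run on them. Gpx4 had a log2 fold change of 0.013 with quantile normalization, the opposite sign (limma adjusted p = 0.79), and -0.17 with median-of-ratios scaling (limma adjusted p = 0.0070). The cause was not tested. Median-of-ratios scaling moved the median of all genes from 0.082 to -0.018. With quantile normalization 1 of the 9 genes was downregulated in place of 2, Sod2 being at -0.92. Without the fold change minimum 4 of the 9 were higher and 4 lower, and over all genes 4741 and 3807 in place of 1028 and 995. With a mean of at least 5 TPM, 683 genes were upregulated, as fewer genes were tested. A pseudocount of 0.1 gave 1444 upregulated and 1232 downregulated genes, and median-of-ratios scaling gave 808 and 1171. The shares of all genes past 2-fold thus depend on these settings. With one library left out, 971 to 1130 genes were upregulated and 964 to 1031 downregulated, and of the 9 genes always 1 and 2.

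The groups share replicate numbers. Deviations from the group means correlated by -0.035 to 0.15 (mean 0.088) for the 4 same-numbered pairs and by -0.145 to 0.162 (mean -0.029) for the 12 others. Of the 8 libraries, 5 correlated best with their own number. These values do not settle whether the numbers pair the samples, and the main fit left them unpaired. With the number entered as a replicate block in limma, the log2 fold changes were the same to 2 decimals and no call among the 9 genes changed, while Eefsec passed (limma adjusted p = 0.028). For the ratios between paired genes, the replicate block leaves 16 sign flips and a smallest p of 0.125, so none could pass. The ratio of Ncf1 to Ncf4 (difference 0.41), of Sod2 to Sod1 (-1.46) and of Gpx4 to Gpx1 (1.37) then had an exact p of 0.125. So did that of Cybb to Cyba (-0.22), which was lower with UDCA in each same-numbered pair. With one library left out the smallest exact p is 0.057. The differences in log2 ratio ranged from 0.37 to 0.45 for Ncf1 to Ncf4, from -1.54 to -1.42 for Sod2 to Sod1, from 1.32 to 1.42 for Gpx4 to Gpx1 and from -0.30 to -0.15 for Cybb to Cyba. Depth is unknown and no counting error could be given.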
